A study of Homo sapiens with 4 samples.

Results

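The genes described here are 7 members of the RAS-RAF-MEK-ERK cascade, namely HRAS and NRAS (RAS GTPases), ARAF and BRAF (RAF kinases), MAP2K1 and MAP2K2 (encoding MEK1 and MEK2) and MAPK3 (encoding ERK1). They were chosen by symbol as core members of the cascade, with earlier results of these data known, from 26726 genes with counts. All 7 were among the 15104 genes that passed the filter on low counts and were tested, and the lowest count of any of them in any library was 163.

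RAS proteins are small GTPases of the plasma membrane that recruit RAF kinases when bound to GTP. RAF phosphorylates MEK1 and MEK2, which in turn phosphorylate ERK, and ERK acts on transcription factors, on further kinases and on the phosphatases and adaptors that feed back on the cascade. In squamous cell carcinoma of the head and neck (HNSCC), the EGF receptor commonly feeds into this cascade, and HRAS is the RAS gene most often mutated. Sequencing of RNA measures the transcripts of these genes and not the phosphorylation or amount of their proteins.

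RNA was sequenced from HN12 cells, a human HNSCC line, in which ATAD3A had been disrupted with CRISPR/Cas9 (KO), and from the parental HN12 cells (WT). ATAD3A is an ATPase of the mitochondrial inner membrane, and the study asked how gene expression, including that of the MAPK pathway, differed once it was lost. Each genotype gave 2 libraries from independent cultures, untreated and in the same serum-containing medium, with 13569971 to 18943547 counts per library. The KO cells were clones grown from single cells and picked by Western blotting, and the sources do not say which clone gave the RNA, so effects of cloning and of ATAD3A loss cannot be told apart.

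ATAD3A itself had 702 and 492 counts in the KO libraries and 1802 and 1471 in the WT libraries, a log2 fold change of -1.70 (SE 0.091), or -2.02 with the correction for GC content and length described next. Its counts were thus lower in both libraries labelled KO, and some were still assigned to it there. The paralog ATAD3B, named after its values were seen, had 2892 and 2325 counts in KO and 1122 and 1128 in WT. Its log2 fold change was 0.96, or 0.79 with that correction. Sequence shared by ATAD3A and ATAD3B was not examined. All 11 squamous epithelial markers examined were detected, with summed levels of 7306 and 7510 CPM (counts per 1000000 counts of the library, scaled by the TMM method) in KO and 4064 and 4134 CPM in WT. All 11 passed the test, 7 as higher and 4 as lower (20.4% and 19.1% of all tested genes). KRT5, with 402 and 391 CPM in WT and 2468 and 2440 CPM in KO, rose by 2.63 on the log2 scale, whereas TP63, CDH1, EPCAM and DSG3 fell by 0.28, 0.24, 0.34 and 1.12. With the correction for GC content and length 9 markers passed, 6 higher and 3 lower (18.0% and 16.0% of all tested genes). TP63 was then at -0.10 and SFN at 0.025, and neither passed. The part of these shifts in the results below was not tested. Of the fibroblast, immune and endothelial markers, 4 of 6, 4 of 5 and 3 of 4 were in the table, with summed levels of 11.99 to 16.7, 2.66 to 4.08 and 1.52 to 2.39 CPM, and PTPRC, which marks leukocytes, did not exceed 0.488 CPM. In such bulk RNA, fewer cells of a type and less RNA per cell cannot be told apart.

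The comparison of all genes sets the background for these 7. With edgeR's quasi-likelihood test and Benjamini-Hochberg adjustment, 5965 of the 15104 genes, or 39.5%, passed an adjusted p of 0.05, with 3074 (20.4%) higher and 2891 (19.1%) lower in KO. When libraries were scaled by their totals only, 2508 were higher and 3615 lower. Fold changes also followed the GC content of the transcripts. Among genes with an average log2 CPM over 2, the median log2 fold change was -0.21 in the quintile of genes with the lowest GC content (27.8% to 40.8%) and 0.26 in the quintile with the highest (58.1% to 75.7%). Offsets fitted per library on GC content and gene length brought these medians to 0.03 and 0.02, and with them 33.9% of the genes passed the threshold, 18.0% higher and 16.0% lower. The source of the GC trend was not tested, and values of the 7 genes and of the pathway genes named below are therefore given without and with these offsets.

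The RNA of 3 of the 7 genes changed in KO cells, against the background of 39.5% of all tested genes, with 2 higher (20.4% of all genes) and 1 lower (19.1%). MAP2K2 and HRAS had log2 fold changes of 0.44 and 0.23, and NRAS had one of -0.40. ARAF, BRAF, MAP2K1 and MAPK3 did not pass the threshold. With the GC and length offsets 4 of the 7 passed, against a background of 33.9%. MAP2K2 was still higher (18.0% of all genes), and NRAS, MAPK3 and, in a reversal of its direction, HRAS were lower (16.0%). The KO and WT libraries did not overlap for 6 of the 7 genes, all but MAP2K1, and did not overlap for 68.1% of all tested genes. Under the limits that the study used, a level more than 25% higher or 25% lower with an unadjusted p under 0.05, MAP2K2 was the only one of the 7 to pass, against 29.2% of all genes. With the offsets MAPK3 passed these limits in its place (23.9% of all genes), and with scaling by library totals NRAS and MAP2K2 did (29.0%).

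**Figure D1:**
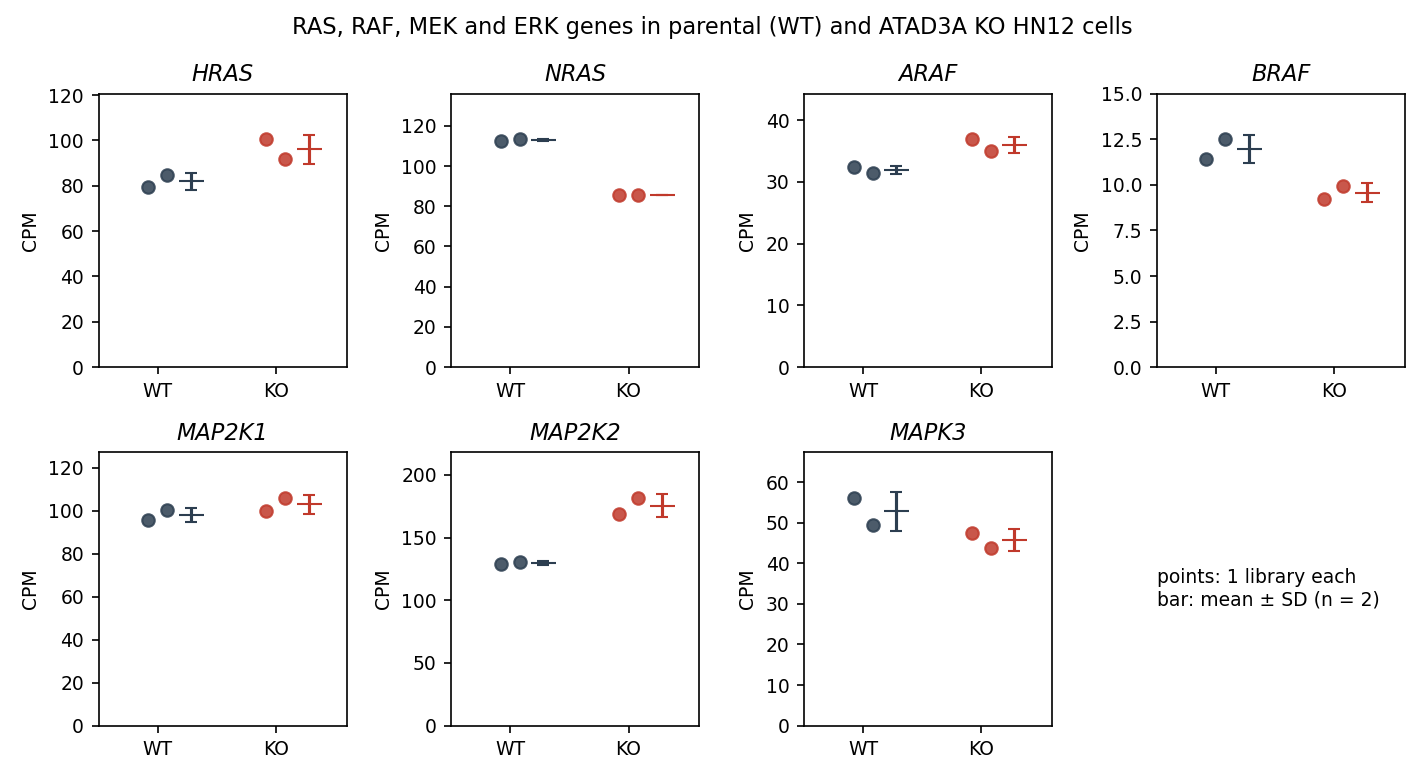
CPM of the 7 genes in each library of parental (WT) and ATAD3A KO cells, with 1 point per library and, beside the points, the mean and SD of 2 libraries. All axes start at 0. The KO points lie below the WT points for NRAS and above them for MAP2K2, and the MAP2K1 groups overlap.

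HRAS and NRAS encode RAS GTPases that differ mainly in their C-terminal tails and in how they are lipid-modified.

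HRAS (ENSG00000174775, chromosome 11, 532242 to 537287, minus strand) had 101 and 91.6 CPM in the KO libraries and 79.4 and 84.7 CPM in the WT libraries. Both KO libraries lay above both WT libraries, with means of 96.1 ± 6.36 and 82.0 ± 3.77 CPM (SD, n = 2). The log2 fold change was 0.23 (SE 0.074, edgeR quasi-likelihood test, Benjamini-Hochberg adjusted p = 0.0124), a fold of 1.17 with a 95% interval of 1.06 to 1.3. A larger absolute change was seen for 59.6% of the tested genes. HRAS has the highest GC content of the 7 genes, 65.8% over 1233 nt, and with the GC and length offsets its log2 fold change was -0.20 (SE 0.064, edgeR quasi-likelihood adjusted p = 0.0141), so the direction of its change turned. The increase also missed the threshold when scaled by library totals (0.16), without the first KO library (0.16, edgeR adjusted p = 0.131) and without the first WT library (0.19, edgeR adjusted p = 0.156).

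NRAS (ENSG00000213281, chromosome 1, 114704469 to 114716894, minus strand) gave 85.7 CPM in both KO libraries and 113 CPM in both WT libraries. The replicates of each group were nearly equal, with means of 85.7 ± 0.0109 and 113 ± 0.537 CPM (SD, n = 2). An SD this small from 2 libraries is not a measure of the spread of the gene. The biological coefficient of variation over the tested genes was 5.88%. NRAS fell by 0.40 on the log2 scale (SE 0.069, edgeR quasi-likelihood test, Benjamini-Hochberg adjusted p = 1.25e-05), which is a fold of 0.759 with a 95% interval of 0.689 to 0.836. NRAS has the lowest GC content of the 7 genes, 38.4% over 4449 nt, and with the offsets the change was -0.16 (SE 0.061, edgeR quasi-likelihood adjusted p = 0.0420). It passed the threshold under every alternative run.

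The balance within the pair moved toward HRAS before the GC correction. On the RPKM scale, which divides by gene length, HRAS made up 80.9% and 79.4% of the summed HRAS and NRAS level in the KO libraries and 71.8% and 72.9% in the WT libraries. The sum of HRAS and NRAS was 94.7 ± 4.83 RPKM in KO and 94.0 ± 3.54 RPKM in WT (SD, n = 2), a difference smaller than the spread between replicates. These sums are scaled by library totals and carry no GC offsets, with which both genes were lower (folds of 0.868 and 0.894). The log2 ratio of their counts was 0.23 and 0.10 in KO and -0.50 and -0.42 in WT, a difference of 0.63 (95% interval 0.42 to 0.83). This interval, like those of the other paralog ratios, combines the standard errors of both genes as if they were independent. A ratio within a library does not depend on how libraries are scaled, yet it does depend on GC content, and with the offsets the difference was -0.04 (95% interval -0.23 to 0.14).

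Neither of the RAF kinases ARAF and BRAF passed the threshold, without or with the offsets. BRAF has the higher basal kinase activity of the pair and carries the activating mutation common in melanoma, whereas ARAF is the weaker kinase. The longest run shared by their annotated transcripts is 21 nt, below the read length of 50 nt, and lies in coding sequence. It is shown because it bears on whether reads of one gene could be counted for the other. It is in exon 11 of 16 of ARAF-201, chrX:47568788-47568808 on the plus strand, and in exon 13 of 19 of BRAF-204, chr7:140776998-140777018 on the minus strand (GRCh38). The capitals mark the shared run, with 15 nt on either side.
ARAF: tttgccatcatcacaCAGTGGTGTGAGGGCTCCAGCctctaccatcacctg
BRAF: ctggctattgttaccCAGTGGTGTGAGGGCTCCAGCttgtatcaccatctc

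ARAF (ENSG00000078061, chromosome X, 47561100 to 47571920, plus strand) had 36.9 and 35.1 CPM in KO and 32.4 and 31.5 CPM in WT. The KO libraries were the higher ones without overlap, at 36.0 ± 1.33 against 31.9 ± 0.610 CPM (SD, n = 2). The log2 fold change of 0.17 (SE 0.103, edgeR quasi-likelihood test, Benjamini-Hochberg adjusted p = 0.189) did not pass, and the 95% interval of the fold was 0.976 to 1.3. With the offsets the estimate was -0.03.

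BRAF (ENSG00000157764, chromosome 7, 140719327 to 140924928, minus strand) was the least abundant of the 7, with 9.22 and 9.94 CPM in KO and 11.4 and 12.5 CPM in WT. Its KO libraries were the lower ones, 9.58 ± 0.506 against 11.97 ± 0.764 CPM (SD, n = 2), and did not overlap with WT. The log2 fold change was -0.32 (SE 0.172, edgeR quasi-likelihood test, Benjamini-Hochberg adjusted p = 0.142), with a 95% interval of the fold of 0.628 to 1.02, and it was -0.30 with the offsets. In size this change was exceeded by 46.0% of the tested genes, and at 163 to 177 counts per library its standard error was the largest of the 7. On the opposite strand, NDUFB2 overlaps 5.29% of the annotated BRAF exon bases. NDUFB2 had 249 and 208 counts in KO and 127 and 101 in WT, and whether the counting used strand is not given in the sources used here. Of the 50-nt stretches of the BRAF transcript used, 7.36% also occur in the pseudogene BRAFP1.

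Summed on the RPKM scale, likewise without the offsets, ARAF and BRAF came to 18.0 ± 0.292 in KO and 18.2 ± 0.117 in WT (SD, n = 2), a difference within the spread. The share of ARAF in that sum was 80.2% and 78.1% in KO and 74.1% and 71.8% in WT. The log2 ratio of ARAF to BRAF counts was 2.002 and 1.82 in KO and 1.501 and 1.33 in WT, a difference of 0.49 with a 95% interval of 0.09 to 0.90. That interval included 0 with the offsets (0.27, -0.13 to 0.67), without the first KO library (0.40, -0.09 to 0.89) and without the second WT library (0.41, -0.10 to 0.92).

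MAP2K1 and MAP2K2 encode MEK1 and MEK2, the dual-specificity kinases that RAF activates by phosphorylating a pair of serines in the activation loop. Their coding sequences are identical over 38 nt there, the longest run their annotated transcripts share, and it is still shorter than a read. It is in exon 6 of 11 of both genes, at chr19:4101035-4101072 on the minus strand in MAP2K2-201 and at chr15:66481826-66481863 on the plus strand in MAP2K1-201 (GRCh38). The shared run is in capitals, with 15 nt on either side.
MAP2K2: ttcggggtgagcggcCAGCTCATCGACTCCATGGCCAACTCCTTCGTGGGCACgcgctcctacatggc
MAP2K1: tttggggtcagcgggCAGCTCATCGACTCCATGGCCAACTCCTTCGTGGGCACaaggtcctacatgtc

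MAP2K2 (ENSG00000126934, chromosome 19, 4090321 to 4124129, minus strand) had 169 and 182 CPM in KO and 129 and 130 CPM in WT. Both KO libraries were well above WT, with means of 175 ± 9.08 and 130 ± 1.36 CPM (SD, n = 2). The log2 fold change was 0.44 (SE 0.063, edgeR quasi-likelihood test, Benjamini-Hochberg adjusted p = 5.55e-07), with a 95% interval of the fold of 1.24 to 1.48. Without the offsets MAP2K2 had the largest absolute change of the 7 genes, and 33.2% of the tested genes had a larger one. With the offsets its log2 fold change was 0.22 (SE 0.056, edgeR quasi-likelihood adjusted p = 0.0025), smaller in size than those of MAPK3 (-0.45) and BRAF (-0.30). It passed under every alternative run, with values from 0.38 to 0.49 when libraries were left out in turn.

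MAP2K1 (ENSG00000169032, chromosome 15, 66386817 to 66492312, plus strand) had 99.7 and 106 CPM in KO and 95.6 and 100.1 CPM in WT. The second WT library lay above the first KO library, so the groups overlapped. Its log2 fold change was 0.07 (SE 0.070, edgeR quasi-likelihood test, Benjamini-Hochberg adjusted p = 0.449) and the 95% interval of the fold, 0.953 to 1.16, leaves out changes of the size seen for MAP2K2. With the offsets it was 0.04. Part of MAP2K1 is also covered on the opposite strand by AC116913.1, over 11.5% of its exon bases, and by SNAPC5, over 5.75%. SNAPC5 had 315 and 292 counts in KO and 318 and 256 in WT. Of the 50-nt stretches of the MAP2K1 transcript used, 9.97% also occur in other genes, among them 3.07% in the pseudogene MAP2K1P1. For MAP2K2 the share was 3.23%, spread over 258 other genes with at most 0.834% in any of them. How reads from such stretches were counted is not given in the sources used here.

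On the RPKM scale, without the offsets, the MEK pair was the one whose summed level was higher in KO by more than the spread. It was 87.8 ± 4.48 against 74.6 ± 1.66 RPKM (SD, n = 2), or 17.7% above WT. With the offsets the log2 fold changes of MAP2K2 and MAP2K1 were 0.22 and 0.04. The log2 ratio of MAP2K2 to MAP2K1 counts was 0.76 and 0.78 in KO and 0.43 and 0.38 in WT. The difference of 0.36 (95% interval 0.17 to 0.55) was 0.18 with the offsets, where the lower end of its interval came close to 0 (0.0066 to 0.35), and ranged from 0.34 to 0.39 when libraries were left out in turn. MAP2K2 accounted for 66.4% and 66.6% of the pair on the RPKM scale in KO and for 61.1% and 60.3% in WT. With 2 libraries per group, an exact two-sided permutation test cannot go below p = 0.333, which each of the 3 paralog ratios reached (0.333 after Benjamini-Hochberg adjustment over the 3).

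**Figure D2:**
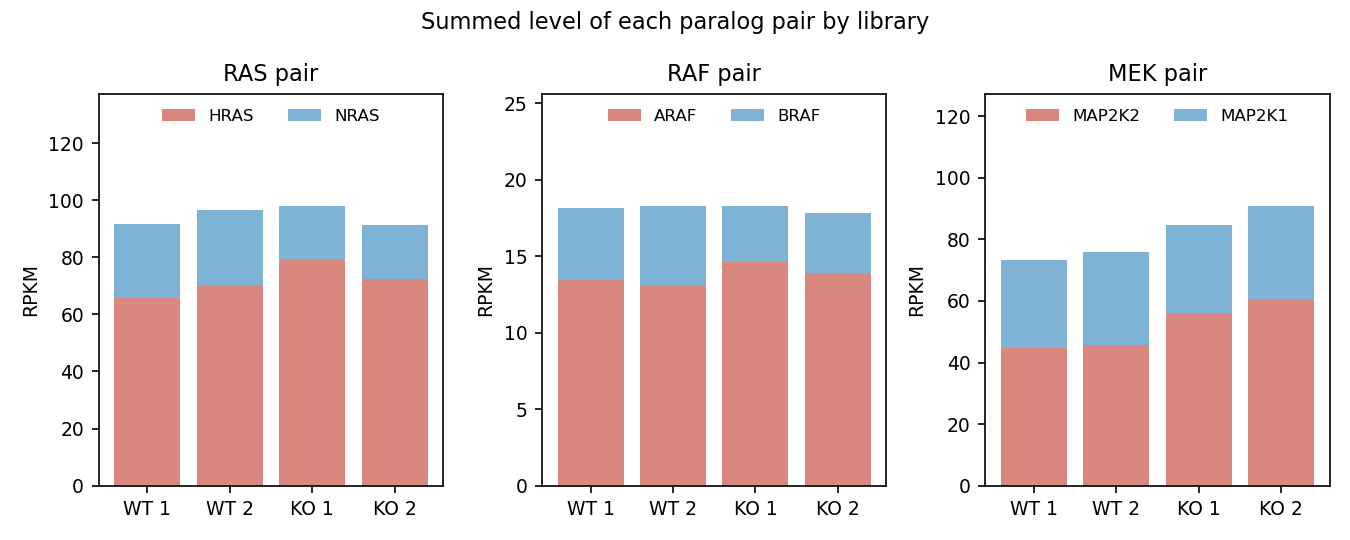
Stacked bars of RPKM, 1 bar per library, for HRAS and NRAS, ARAF and BRAF, and MAP2K2 and MAP2K1. The values are scaled by library totals and carry no GC and length offsets. The summed height is alike in KO and WT for the first and the second pair, and is higher in KO for the third, where MAP2K2 makes up 66.4% and 66.6% of the KO bars.

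MAPK3 (ENSG00000102882, chromosome 16, 30114105 to 30123506, minus strand) encodes ERK1, one of the kinases at the end of the cascade. It had 47.6 and 43.8 CPM in KO and 56.2 and 49.5 CPM in WT. The KO libraries were the lower ones without overlap, by a margin smaller than the difference between the WT replicates, and the means were 45.7 ± 2.64 and 52.8 ± 4.75 CPM (SD, n = 2). The log2 fold change was -0.21 (SE 0.093, edgeR quasi-likelihood test, Benjamini-Hochberg adjusted p = 0.0705), a fold of 0.865 with a 95% interval of 0.760 to 0.985.

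The call for MAPK3 also turned on the handling of GC content. At 61.4% GC it belongs to the quintile of genes whose median log2 fold change was 0.26, and its own change was in the other direction. With the offsets it fell by 0.45 on the log2 scale (SE 0.088, edgeR quasi-likelihood adjusted p = 0.000155), a fold of 0.731 with a 95% interval of 0.646 to 0.828. It also passed the threshold with scaling by library totals (-0.28), without the first KO library (-0.27) and without the second WT library (-0.30), whereas leaving out other libraries brought it as near to 0 as -0.11. On the RPKM scale MAPK3 was at 18.0 and 16.7 in KO and 22.3 and 19.8 in WT, and its mean was 17.5% lower in KO.

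**Figure D3:**
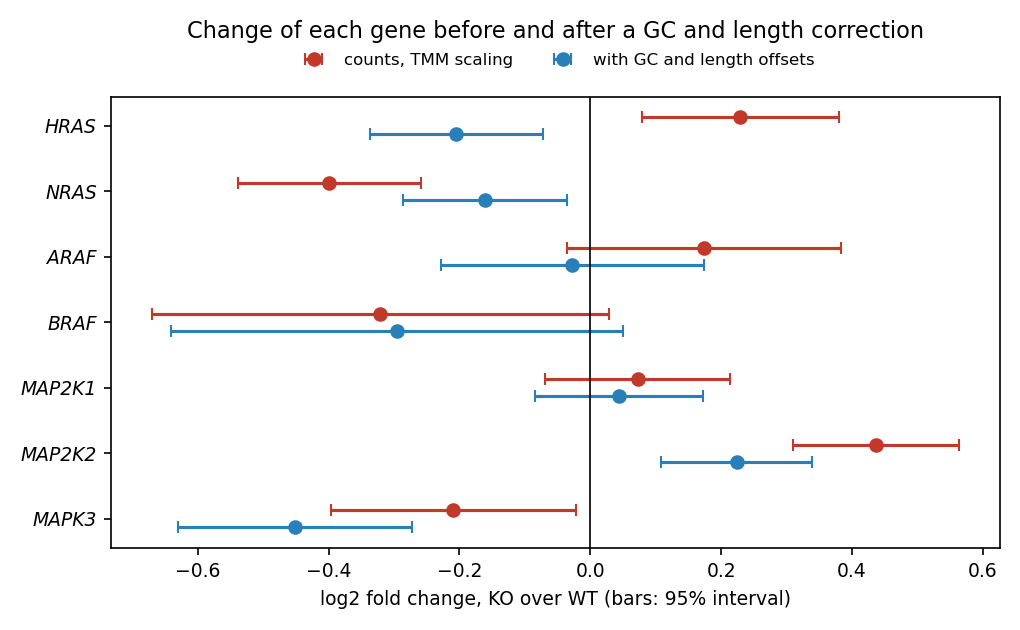
Log2 fold change (KO over WT) of each of the 7 genes with its 95% interval, from counts scaled by the TMM method (red) and with GC and length offsets (blue). HRAS moves from 0.23 to -0.20 and MAPK3 from -0.21 to -0.45, while NRAS stays below and MAP2K2 above 0 in both.

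**Figure D4:**
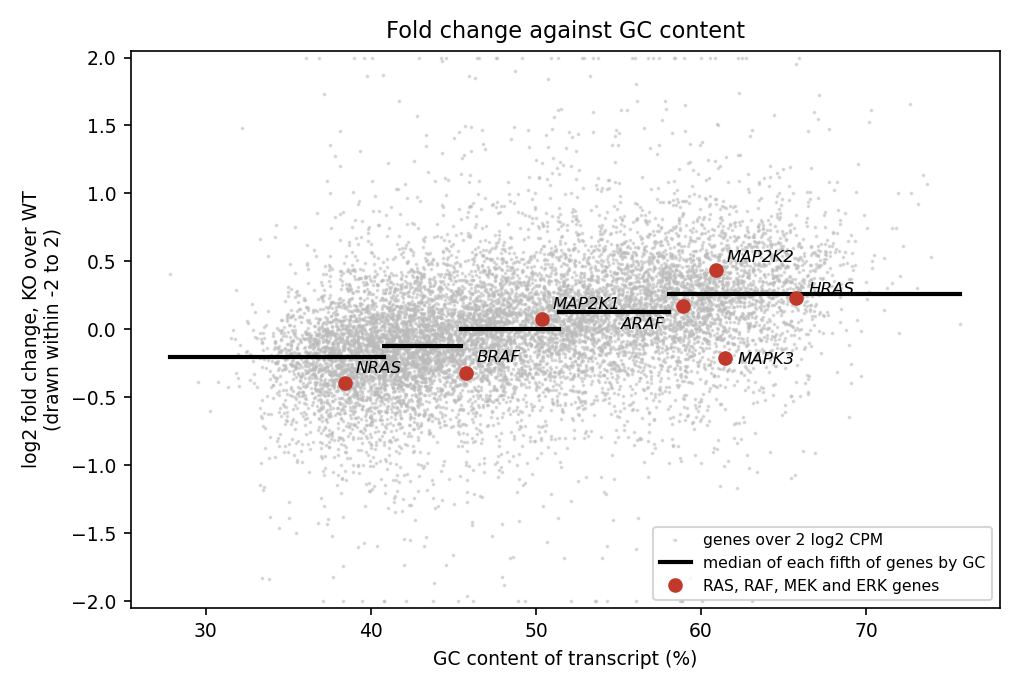
Log2 fold change (KO over WT) against the GC content of the transcript in percent, for genes with an average log2 CPM over 2 (grey), with the median of each quintile of genes by GC content (black lines) and the 7 genes (red). The medians go from -0.21 to 0.26, HRAS lies close to the line of its quintile, and MAPK3 lies below it.

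Per length, the 7 genes stood in the same order in both groups. HRAS was highest, with mean levels of 75.9 RPKM in KO and 68.0 in WT, followed by MAP2K2, MAP2K1, NRAS, MAPK3, ARAF and BRAF, which was lowest at 3.76 and 4.94 RPKM. The libraries of neighbours in that order did not overlap in either group. NRAS (18.7 and 18.8 RPKM) and MAPK3 (18.0 and 16.7 RPKM) came closest in KO, and were apart by less than the libraries of MAPK3 were from each other. The RPKM table uses 1 length per gene, which for BRAF is 2480 nt although its longest annotated transcript has 9578 nt, so its level per length depends on that choice.

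The start sites of the 7 genes differ in sequence as the transcripts do. In windows from 250 nt before to 50 nt after the RefSeq start (GRCh38.p14), found for all 7, and taking for MAP2K1 and MAP2K2 the window at the start of the annotated gene, GC content ranged from 57.3% for NRAS to 80.7% for MAPK3, against a median of 58.7% over 35116 windows. The further windows of MAP2K1 and MAP2K2, inside the genes, had 53.7% and 61.7% and no GC box. The GC box GGGCGG, or CCGCCC on the other strand, which Sp1-family factors can bind, occurred 8 times in the window of MAPK3, 5 times in HRAS, 3 times each in NRAS and MAP2K1, and 2 times in MAP2K2. It was in neither the ARAF nor the BRAF window, and is held by 45.0% of all windows. The letters TATAAA, or TTTATA on the other strand, were in 0 of the 7 windows nearest the gene start and in 11.5% of all windows. The windows of the genes with the largest change in each direction before the offsets are printed, MAP2K2 from chr19:4124073-4124372 and NRAS from chr1:114716722-114717021, both on the minus strand, with GC boxes in capitals. A match describes the letters and does not show binding.
MAP2K2: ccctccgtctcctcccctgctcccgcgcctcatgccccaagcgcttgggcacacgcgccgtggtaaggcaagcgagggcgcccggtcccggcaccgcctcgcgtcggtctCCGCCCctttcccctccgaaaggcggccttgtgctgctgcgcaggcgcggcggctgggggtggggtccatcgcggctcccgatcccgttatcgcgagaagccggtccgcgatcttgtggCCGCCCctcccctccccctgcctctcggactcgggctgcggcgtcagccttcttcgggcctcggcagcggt
NRAS: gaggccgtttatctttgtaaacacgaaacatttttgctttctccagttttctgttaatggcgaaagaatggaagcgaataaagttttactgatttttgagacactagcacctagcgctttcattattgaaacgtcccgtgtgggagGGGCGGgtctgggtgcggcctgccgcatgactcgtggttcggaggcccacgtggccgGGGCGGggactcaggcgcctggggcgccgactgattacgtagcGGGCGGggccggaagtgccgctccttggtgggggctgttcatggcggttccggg

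The tested genes whose 4 libraries followed MAP2K2 most closely were SEC31B, PPRC1 and EEPD1, with root mean square differences of 0.0116, 0.0140 and 0.0142 between centred log2(CPM + 0.5) values over the 4 libraries. PPRC1, a coactivator of nuclear genes for mitochondrial proteins, had 156 and 167 CPM in KO and 119 and 118 CPM in WT. EEPD1 had only 22 counts in each KO library and 12 and 11 in the WT libraries, and did not pass the test. As many as 1205 genes came within 0.1 of MAP2K2 on this measure, so with 4 libraries the likeness is common.

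Around the core genes, 108 other genes of the pathway were examined in 8 lists, of which 104 were in the table and 102 were tested. Of these, 59 or 57.8% passed the threshold, 32 higher and 27 lower, against 39.5% of all genes, and their median log2 fold change was -0.02. The shares of all genes were 20.4% higher and 19.1% lower. With the offsets 51 passed, 28 higher and 23 lower, against 33.9% of all genes (18.0% and 16.0%). The lists were chosen with earlier results of these data known, and the shares of all genes were not matched to them for expression level.

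Upstream of RAS, 6 of 14 tested exchange factors and adaptors fell in KO and 2 rose (19.1% and 20.4% of all genes), with a median of -0.30 against -0.0042 over all genes. With the offsets 6 fell and 2 rose (16.0% and 18.0% of all genes) and the median was -0.15. Of those that fell, SOS1 and FRS2 then no longer passed and GRB2 and RASGRP2 did, the last 3 named after their values were seen. GAB2, a docking protein that recruits the phosphatase SHP2, had 11.7 and 14.4 CPM in KO and 21.2 and 18.9 CPM in WT, and fell by 0.62 on the log2 scale, or by 0.66 with the offsets. SOS1, the main exchange factor that loads RAS with GTP downstream of growth factor receptors, had 38.5 and 43.2 CPM in KO and 58.4 and 55.9 CPM in WT. Its log2 fold change was -0.49, and -0.17 with the offsets, where it did not pass (edgeR quasi-likelihood adjusted p = 0.118). PTPN11, which encodes SHP2, fell by 0.33, and by 0.13 with the offsets. The adaptor SHC1 rose by 0.41, or by 0.30 with the offsets, with 147 and 149 CPM in KO and 112 and 111 CPM in WT, and the exchange factor RASGRF2 rose by 1.05, or by 1.23 with the offsets, from a low level of 32 and 25 counts in WT.

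GTPase activators, which return RAS to its GDP-bound state, moved both ways. Of 9 tested, 3 rose and 3 fell (20.4% and 19.1% of all genes), and 3 rose and 2 fell with the offsets (18.0% and 16.0%). NF1 had 199 and 235 CPM in KO and 291 and 296 CPM in WT, a log2 fold change of -0.43 that was -0.13 with the offsets. RASA3, DAB2IP and RASAL2 rose by 0.63, 0.60 and 0.30, and with the offsets by 0.55, 0.45 and 0.59. RASA2 fell by 0.27, and with the offsets it was at 0.0055.

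Among 12 tested enzymes that process or shuttle RAS proteins, 7 rose (20.4% of all genes) and the other 5 did not pass, with a median of 0.23. With the offsets the median was 0.15, 5 rose (18.0% of all genes) and 1 fell (16.0%), which was PDE6D, a carrier of prenylated proteins, named after its values were seen. ABHD17A, a thioesterase that removes palmitate from NRAS, had 83.1 and 84.8 CPM in KO and 51.3 and 49.5 CPM in WT and rose by 0.73 on the log2 scale, or by 0.49 with the offsets. ABHD17C, a relative of it, rose by 0.45, or by 0.59 with the offsets. RCE1, the protease that trims farnesylated RAS, rose by 0.42, and with the offsets was at 0.15 and did not pass.

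Scaffolds and regulators of RAF, MEK and ERK showed 8 genes higher and 9 lower of 29 tested (20.4% and 19.1% of all genes), with a median of -0.02, and 7 higher and 9 lower with the offsets (18.0% and 16.0%). KSR1, the scaffold that holds RAF and MEK together, had 6.29 and 6.65 CPM in KO and 11.5 and 10.1 CPM in WT, and fell by 0.74, or by 0.77 with the offsets. The KO libraries of KSR1 were below WT, at 109 to 178 counts per library, and it was named for the largest called fall in the list. SHOC2 and PPP1CB, 2 parts of the phosphatase complex that activates RAF, fell by 0.46 and 0.58, and PPP1CA, another catalytic subunit, rose by 0.50. PPP1CC, a further catalytic subunit named after its values were seen, fell by 0.21, and at -0.12 with the offsets did not pass. With the offsets SHOC2 was at -0.21 (edgeR quasi-likelihood adjusted p = 0.0977), while PPP1CB and PPP1CA kept their direction at -0.30 and 0.20. LAMTOR1 and LAMTOR2, parts of the late endosomal complex that anchors MEK1 through LAMTOR3, rose by 0.60 and 0.52. With the offsets LAMTOR1 was at 0.36, which passed, and LAMTOR2 at 0.26 (edgeR quasi-likelihood adjusted p = 0.0630).

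Below ERK, 15 genes known to follow MEK and ERK activity were tested. Of these, 8 rose and 4 fell (20.4% and 19.1% of all genes), with a median of 0.54. With the offsets 9 rose and 3 fell (18.0% and 16.0% of all genes), with a median of 0.37. DUSP4, a nuclear phosphatase that acts on ERK, had 209 and 197 CPM in KO and 63.2 and 70.0 CPM in WT, a log2 fold change of 1.61 (SE 0.069) that was the same with the offsets. DUSP6, the cytoplasmic ERK phosphatase, had 165 and 156 CPM in KO and 96.7 and 94.97 CPM in WT, and rose by 0.75, or by 0.81 with the offsets. SPRY4, a feedback inhibitor, had 70.5 and 68.8 CPM in KO and 40.5 and 36.2 CPM in WT, and rose by 0.86, or by 0.84 with the offsets. These 3 were named for the largest called rises in the list, so the gap between their KO and WT libraries follows from that choice. KO and WT libraries did not overlap for 68.1% of all tested genes. The transcription factor ETV5 fell by 0.50, the RAS inhibitor SPRED1 by 0.47 and the early response gene IER3 by 0.38, and with the offsets these were at -0.48, -0.19 and -0.66, of which SPRED1 did not pass.

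Of the 8 kinases that ERK phosphorylates, 3 rose and 2 fell (20.4% and 19.1% of all genes), and 2 rose and 1 fell with the offsets (18.0% and 16.0%). RPS6KA4, encoding the nuclear kinase MSK2, had 369 and 345 CPM in KO and 189 and 197 CPM in WT and rose by 0.89, or by 0.61 with the offsets. RPS6KA1 rose by 0.25, RPS6KA5 fell by 0.62 and RPS6KA3 by 0.42, and none of these passed with the offsets. RPS6KA6, named here after its values were seen, had 41 and 23 counts in KO and 0 and 2 counts in WT and passed as higher. It met the filter on low counts only through its KO libraries, so it could be called only as higher. Its call is therefore no support for a rise, although it is counted among the genes that rose here and in the total over the lists. MKNK2, also named after its values were seen, passed as lower only with the offsets, at -0.35.

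**Figure D5:**
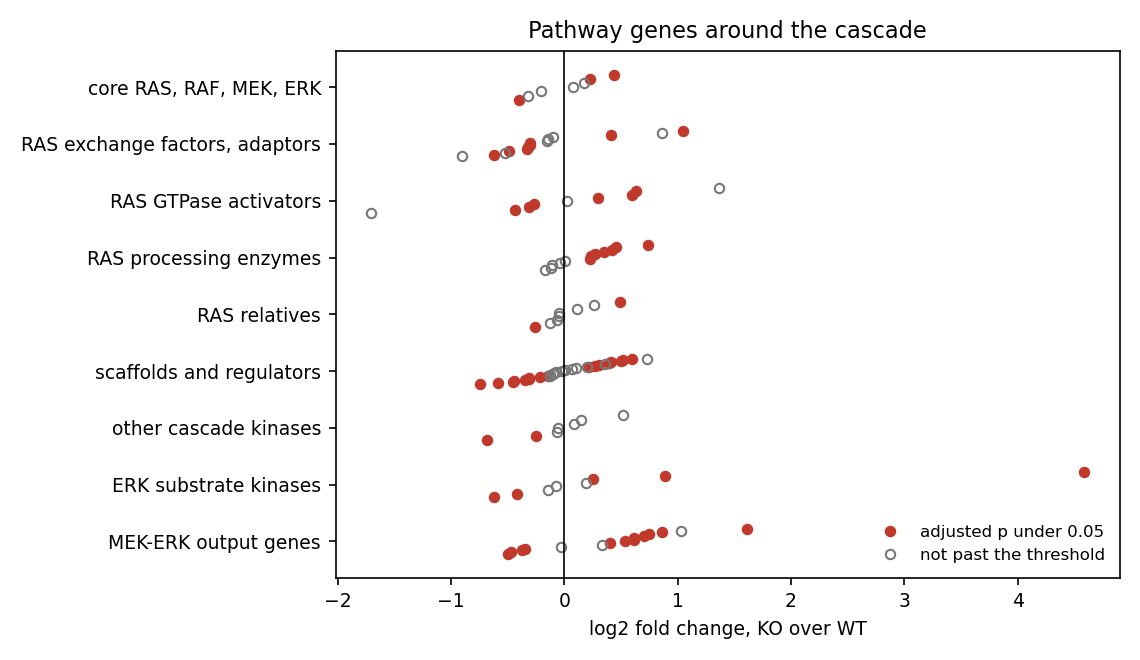
Log2 fold change (KO over WT) of the tested genes in the 7 core genes and in each of the 8 pathway lists, 1 point per gene, filled where the adjusted p was under 0.05. The points of the output genes lie mostly to the right of 0 with DUSP4 at 1.61. The point farthest right among the substrate kinases is RPS6KA6, whose WT libraries held 0 and 2 counts. RPS6KA6 met the filter on low counts only through its KO libraries.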

How the data were processed

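Total RNA of parental and ATAD3A KO HN12 cells was sequenced by the authors as 50-nt reads, and the authors deposited read counts per gene for 26726 genes, not normalized, with Ensembl identifiers. A further table deposited by the authors holds RPKM values. Each equals the count divided by 1 length per gene and the library total, to within 1.82e-05%. The submitters' processing notes name genome build hg19, CASAVA, STAR 2.5, HTSeq, edgeR 3.16.5 and DESeq2, and use of strand and annotation are not given in the sources used here. Groups follow the labels.

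Counts were tested with edgeR 4.0.16 in R 4.3.3 (filterByExpr, TMM factors of 0.975 to 1.03, glmQLFit and glmQLFTest on the group alone), with Benjamini-Hochberg adjustment over all 15104 tested genes. The study's own test, in the DESeq package, was not run. The biological coefficient of variation was 5.88%. Standard errors come from the fold change and its F statistic. Replicates differed by more than sampling noise (chi-square per degree of freedom 4.20 in KO, 3.36 in WT). GC content came from GENCODE 29 (GRCh38) for 14684 tested genes, and the offsets from splines with 4 degrees of freedom over 11000 genes. DESeq2 1.42.0, edgeR's exact test and limma 3.58.1 on log2(RPKM + 1) and log2(RPKM + 0.1) were alternatives. On simulated counts for 14785 genes, the test recovered 44 of 70 genes changed 1.3-fold and 54 of 54 changed 2-fold at over 10 CPM, with 9 false calls. Only 200 genes were changed there, equally up and down and without a GC trend, so these rates do not carry over to the KO and WT comparison.

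Named genes are ATAD3A, the 7 core genes, up to 3 called genes in each direction per list with the largest change at an average log2 CPM of 1 or more, and the 3 genes closest to the core gene with the largest called change. Members and lists were chosen with earlier results of these data known. Paralogs of the RAS, RAF and ERK families other than the 7, and a gene that the rule named, are not reported here. Depth sets the precision of low genes, for which 3 counts are 0.158 to 0.221 CPM.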

Additional observations from a re-analysis of the deposited data

How the results depend on the processing

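Of 123 alternative values of a fold change or ratio, 103 kept their direction and their side of the threshold, including those of NRAS, BRAF, MAP2K1 and MAP2K2, and 47 of 48 counts of called genes stayed within 1.5 times the main count. The fold limits of the study left 1 core gene. HRAS turned to -0.20 with the GC and length offsets and, in the replicate block with these offsets, to -0.20, and missed the threshold with scaling by totals (0.16), log2(RPKM + 1) (0.16) and log2(RPKM + 0.1) (0.16), and ranged from 0.16 to 0.29 when libraries were left out. ARAF, never past the threshold, was at -0.0276 with the offsets and at -0.0275 with the block as well. MAPK3 passed with totals (-0.28), the offsets (-0.45), the block with offsets (-0.45), log2(RPKM + 1) (-0.26) and log2(RPKM + 0.1) (-0.28), and ranged from -0.30 to -0.11 when libraries were left out. With the offsets the HRAS to NRAS difference was -0.0434 and the ARAF to BRAF difference 0.27, the latter ranging from 0.40 to 0.59 when libraries were left out. The cause was not tested. Leaving out 1 library left between 2 and 4 core genes called and 4416 to 5666 of all genes, and assumes that the lone library varies like the other group. The replicate numbers are not known to pair the cultures (correlation of deviations -0.0598 over 11161 genes). A replicate block changed no call of the 7 genes (HRAS 0.23, NRAS -0.40, MAP2K2 0.44), with 5820 genes called against 5965. Depth limits BRAF most.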

Other observations

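Of 8 tested relatives of RAS, 1 rose and 1 fell, against 20.4% and 19.1% of all genes. RRAS rose by 0.49 on the log2 scale, with 19.9 and 16.9 CPM in KO and 14.7 and 11.6 CPM in WT, and RALA, a small GTPase that acts in membrane traffic, fell by 0.26. With the GC and length offsets RRAS and RALA were at 0.07 and -0.12 and did not pass.

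Of 7 other kinases of MAPK cascades, 2 fell (19.1% of all genes) and the other 5 did not pass. MAP3K1, an upstream kinase of the JNK and ERK branches, had 13.8 and 18.2 CPM in KO and 25.3 and 26.1 CPM in WT, a log2 fold change of -0.69 that was -0.48 with the offsets. MAPK6, an atypical kinase of the ERK family, fell by 0.25, and at -0.02 with the offsets did not pass.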
